A study of Mus musculus with 10 samples.

Results

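Specific granule genes encode the proteins that developing neutrophils store in their secondary and tertiary granules. Neutrophil precursors fill their granules in waves. Promyelocytes make the azurophil proteins first, myelocytes and metamyelocytes make the specific granule proteins next, and band cells add the gelatinase granules. The transcription factors C/EBP epsilon, encoded by Cebpe, and Gfi1 are known to be needed for the specific granule stage, and the transcripts decline as the cells mature. The 10 members were chosen by symbol: Camp, Ngp, Ltf, Lcn2, Chil3, Pglyrp1, Mmp8, Hp, Itgb2l and Cd177. They are 10 of the 55421 genes in the count table, each matched 1 row, and all 10 had enough counts to be tested in every comparison.

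The 10 libraries were poly(A)-selected RNA from myeloid cells of mice bearing subcutaneous MC17-51 fibrosarcomas, collected on day 15 after implantation. Shp2f/f mice carry a floxed Ptpn11, the gene of the phosphatase SHP-2, with no Cre. Shp2f/fLysMcre mice carry the same floxed gene and Cre recombinase driven from the lysozyme M (Lyz2) locus, which is active in granulocytes, monocytes and macrophages. The genotype comparison therefore contrasts both the Cre allele and the deletion with neither. The myeloid-derived suppressor cells (MDSC), immature myeloid cells that expand in tumor-bearing hosts, came from spleen (2 libraries per genotype) and are labelled GR-1+, and the study's methods describe them as the polymorphonuclear, Ly6G-positive fraction taken with magnetic beads. The tumor-associated macrophages (TAM, 3 libraries per genotype) were sorted from the tumors of the same mice as live CD45+CD11b+F4/80+Ly6G- cells. The mice were young adults, and the sources do not say whether a library pooled animals. P-values therefore measure only the spread between these samples.

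Levels are CPM, the counts of a gene scaled to library size, with all 10 libraries scaled together by TMM, the trimmed mean of M-values. Total counts were 28844660 to 38222998 per library, so that the lowest member, Itgb2l in TAM, rested on 8 to 13 counts and the highest, Chil3 in MDSC, on 79876 to 186284. Ptpn11 was counted over the whole gene, and its log2 fold change in Shp2f/fLysMcre was -1.24 in TAM (SE 0.04, edgeR quasi-likelihood test, adjusted p = 2.96e-09) and -0.29 in MDSC (SE 0.14, edgeR, adjusted p = 0.361). In MDSC the level was 106.2 ± 9.88 CPM in Shp2f/f and 87.3 ± 10.6 CPM in Shp2f/fLysMcre (SD, n = 2 each), so that the deletion was not evident from the transcript there. The cell type labels were read against defining markers. Ly6g, the antigen of the polymorphonuclear label, was between 8.92 and 33.2 CPM in the 4 MDSC libraries, whereas Csf1r, a receptor of monocytes and macrophages, was between 1031 and 1442 CPM and Adgre1, which encodes F4/80, between 209.4 and 382.7 CPM. The MDSC libraries thus held abundant monocyte transcripts, which goes against a purely polymorphonuclear fraction, and they are called MDSC here only as their label. TAM had Ly6g at 0.06 to 0.29 CPM and Adgre1 at 636.3 to 996.6 CPM. In one library, MDSC Shp2f/fLysMcre replicate 2, the summed level of 6 fibroblast genes was 463.1 CPM against 9.64 to 27.4 CPM in the other MDSC libraries.

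The 3 members with the largest rises are on chromosome 9 (GRCm38, GENCODE M21). Camp lies at 109847379 to 109849617 on the minus strand, Ngp at 110419747 to 110423012 on the plus strand and Ltf at 111019271 to 111042767 on the plus strand. They are not direct neighbors, since 8 protein-coding genes lie between Camp and Ngp and 20 between Ngp and Ltf. Mmp8 is also on chromosome 9 but 102.3 Mb away, at 7558456 to 7568485. The other members are spread over chromosomes 2 (Lcn2, 32384633 to 32388252), 3 (Chil3, 106147554 to 106167564), 7 (Pglyrp1, 18871331 to 18890459, and Cd177, 24743983 to 24760311), 8 (Hp, 109575128 to 109579172) and 16 (Itgb2l, 96422288 to 96443619). Itgb2l overlaps the span of Igsf5 on the other strand. The study's methods name a stranded library kit, but the strand setting of the counting is not given in the sources used here. Whether reads of the pair were mixed in the counts was not tested. Chil3 has a close paralog, Chil4, with which reads could be shared.

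The sequence before the start of 3 members is shown because Ngp and Ltf rose together in MDSC and Mmp8 did not pass the test there. The sequences are from RefSeq (GRCm38.p6), plus strand, 5′ to 3′, and end before the first annotated base of the gene. Capitals mark matches, on either strand, to the C/EBP letters TTNNGCAA and to the PU.1 letters GAGGAA.
Ngp, chr9:110419558-110419746: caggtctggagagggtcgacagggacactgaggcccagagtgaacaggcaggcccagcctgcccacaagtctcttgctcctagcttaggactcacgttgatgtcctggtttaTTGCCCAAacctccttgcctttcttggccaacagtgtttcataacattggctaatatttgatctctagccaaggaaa
Ltf, chr9:111019042-111019270: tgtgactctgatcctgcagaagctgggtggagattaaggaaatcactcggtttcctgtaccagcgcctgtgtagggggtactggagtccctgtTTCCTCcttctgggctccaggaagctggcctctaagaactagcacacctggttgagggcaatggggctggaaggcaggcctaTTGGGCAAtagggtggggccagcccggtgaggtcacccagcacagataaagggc
Mmp8, chr9:7558179-7558428: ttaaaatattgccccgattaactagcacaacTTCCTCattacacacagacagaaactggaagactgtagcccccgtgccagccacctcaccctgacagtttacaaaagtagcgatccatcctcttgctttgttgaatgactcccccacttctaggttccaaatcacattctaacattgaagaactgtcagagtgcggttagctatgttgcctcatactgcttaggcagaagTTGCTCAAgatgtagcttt
All 3 runs held the C/EBP letters, so the match did not separate the 2 genes that rose from the 1 that did not pass. Of the 9 members with a RefSeq promoter of 300 bases (all but Hp), 4 held the C/EBP letters (Ngp, Ltf, Lcn2 and Mmp8), against 10.8% of 32851 mouse promoters of that length. The PU.1 letters were in 6 of the 9, against 28.3% of all, and the RUNX letters TGTGGT in 1, Ltf, against 16.8%. The promoters of Camp and Chil3 held none of the 3. A match is a description of the letters and not of binding.

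The first question was whether the specific granule genes differed between the genotypes in MDSC, where a fall of the Ptpn11 transcript was not shown. In all, 7 of the 10 rose in Shp2f/fLysMcre MDSC (edgeR quasi-likelihood test, adjusted p under 0.05), against 3.76% of all 14806 tested genes called higher. None of the 10 was called lower by edgeR or DESeq2, nor had an unadjusted p under 0.05 in that direction, against 0.52% of all genes called lower. In 8 of the 10 both Shp2f/fLysMcre libraries lay above both Shp2f/f libraries, a separation that 24.9% of all tested genes showed. The median log2 fold change of the 10 was 1.73, against -0.01 for all genes. The 10 genes together rose from 7318 and 7466 CPM in the Shp2f/f libraries to 19570 and 15440 CPM in the Shp2f/fLysMcre libraries, which was 0.76% and 0.77% of all counts against 2.01% and 1.69%.

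**Figure D1:**
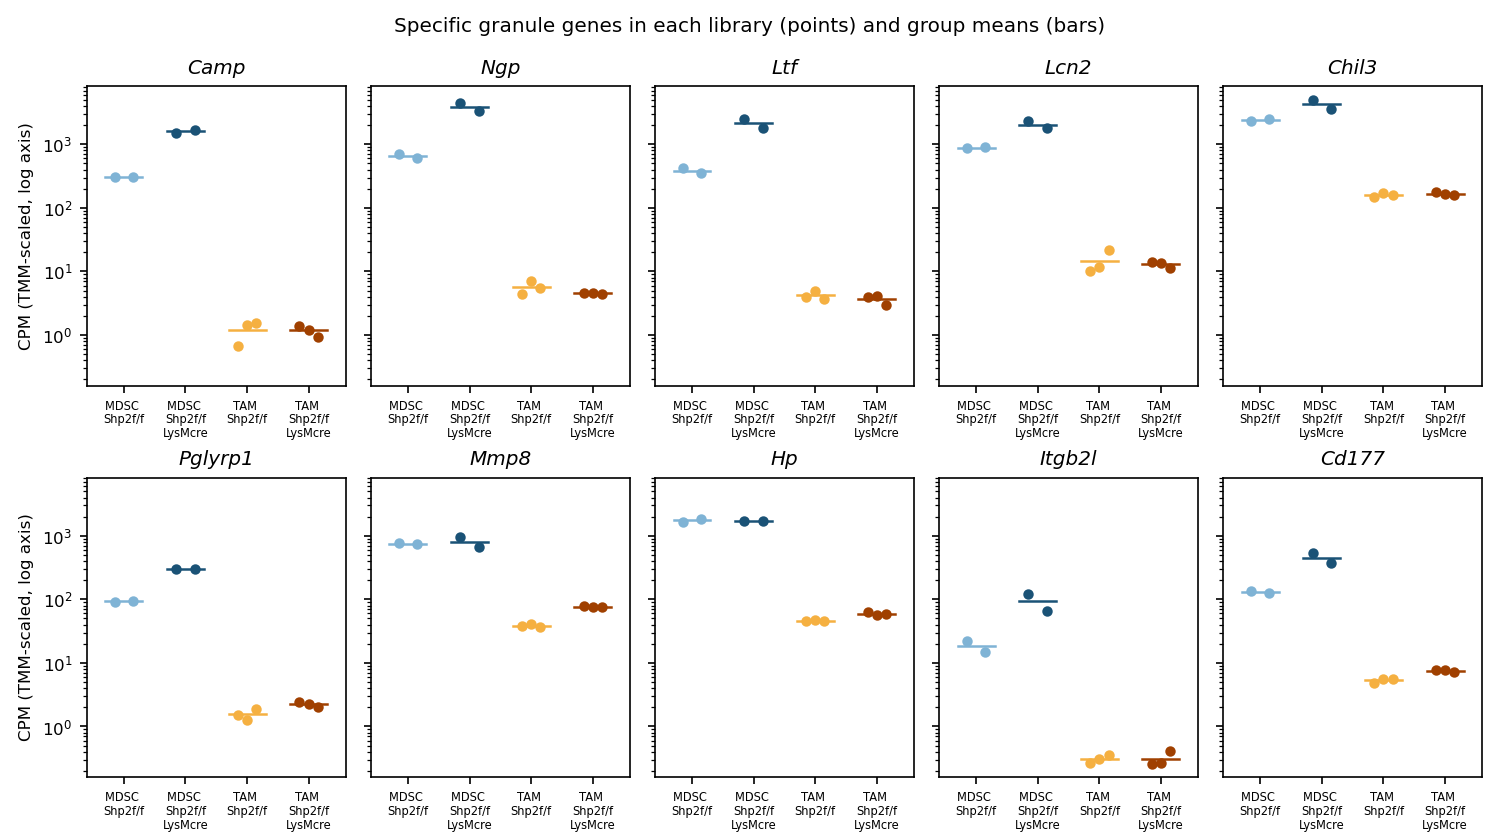
Level of each specific granule gene in each library (points, TMM-scaled CPM on a log axis) with group means (bars), for MDSC and TAM of both genotypes. In MDSC the Shp2f/fLysMcre points lie above the Shp2f/f points for 8 genes, with Mmp8 and Hp overlapping, and every TAM point lies below every MDSC point of the same gene.

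Both genes of cathelin-related granule proteins rose. Camp, the precursor of the antimicrobial peptide CRAMP, was at 311.3 and 303.8 CPM in Shp2f/f MDSC and at 1526 and 1701 CPM in Shp2f/fLysMcre MDSC. Both pairs were tight and far apart, and the log2 fold change was 2.38 (SE 0.12, edgeR, adjusted p = 0.0111), or 5.22-fold. Ngp, a granule protein related to the cystatins and cathelicidins, was at 710.2 and 611.5 CPM against 4488 and 3363 CPM. It had the largest change of the 10, 2.57 on the log2 scale (SE 0.20, edgeR, adjusted p = 0.017), or 5.92-fold. By log2 fold change Ngp stood at rank 165 from the top of 14806 genes, Ltf at 191, Camp at 215 and Itgb2l at 227.

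Both genes that withhold iron rose, the lactoferrin gene by more than the siderophore binder. Ltf encodes lactoferrin, which binds free iron, and was at 422.6 and 350.1 CPM in Shp2f/f and 2545 and 1807 CPM in Shp2f/fLysMcre MDSC. Its change was 2.49 on the log2 scale (SE 0.22, edgeR, adjusted p = 0.0179). Lcn2, lipocalin 2, which captures bacterial siderophores, was at 876.5 and 902.7 CPM against 2310 and 1775 CPM. It rose by 1.19 on the log2 scale (SE 0.17, edgeR, adjusted p = 0.0264), or 2.29-fold. The difference between the 2 genes' changes was not tested.

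Pglyrp1, which encodes a protein that binds bacterial peptidoglycan, had close replicates. It was at 92.3 and 95.5 CPM in Shp2f/f and at 298.5 and 304.9 CPM in Shp2f/fLysMcre MDSC, a log2 fold change of 1.68 (SE 0.11, edgeR, adjusted p = 0.017). The surface proteins also rose. Itgb2l, an integrin beta subunit of the neutrophil lineage similar to Itgb2, was at 22.2 and 14.9 CPM against 120.9 and 66.8 CPM. It had the widest spread of the 10, and its log2 fold change of 2.34 had a 95% confidence interval from 1.47 to 3.20 (edgeR, adjusted p = 0.0301). Cd177, a lipid-anchored neutrophil surface protein, was at 137.1 and 127.3 CPM against 540.4 and 368.6 CPM, and rose by 1.78 on the log2 scale (SE 0.21, edgeR, adjusted p = 0.0206).

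The other 3 members did not pass. Chil3, the chitinase-like protein Ym1, which macrophages also make, was the most abundant of the 10 by CPM, at 2320 and 2483 CPM in Shp2f/f and 5048 and 3651 CPM in Shp2f/fLysMcre MDSC. The genotypes did not overlap, and the log2 fold change of 0.85 had an adjusted p of 0.0809 (SE 0.19, edgeR). With DESeq2 the same change passed (0.84, adjusted p = 0.000648). In edgeR it passed in a fit of all 10 libraries (adjusted p = 0.00232) and with a replicate block (adjusted p = 0.000478). It did not pass with DESeq2 size factors (edgeR, adjusted p = 0.0799) or total-count scaling (edgeR, adjusted p = 0.0502). Nor did it with TMM factors lacking the members (edgeR, adjusted p = 0.0754) or no low-count filter (edgeR, adjusted p = 0.274). The log2 fold change was 0.56 to 1.08 with 1 library left out. Mmp8, neutrophil collagenase, was at 774.2 and 733.4 CPM against 963.8 and 662.0 CPM. The Shp2f/fLysMcre pair enclosed the Shp2f/f pair, and the log2 fold change of 0.10 had a 95% confidence interval from -0.41 to 0.61 (edgeR, adjusted p = 0.852). Without Shp2f/fLysMcre replicate 2 it was 0.36 (edgeR, adjusted p = 0.0373), and without replicate 1 it was -0.23 (edgeR, adjusted p = 0.167). Hp, haptoglobin, which binds free hemoglobin, was at 1651 and 1844 CPM against 1729 and 1738 CPM, with a log2 fold change of -0.02 and a 95% confidence interval from -0.33 to 0.29 (edgeR, adjusted p = 0.961).

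The edgeR calls in MDSC depended on the Shp2f/f libraries. With either Shp2f/f replicate left out, none of the 10 was called and only 1 gene of the whole table was, because the spread then came from the 2 Shp2f/fLysMcre libraries alone, and with no filter on low counts 4 of the 10 were called. In each of those 2 fits edgeR still gave 8 of the 10 an unadjusted p under 0.05, and DESeq2 on the same 3 libraries called 7. All 7 fold changes stayed above 0 over the 4 fits with 1 library left out, by ranges of differing width. On the log2 scale Camp was between 2.32 and 2.42, Pglyrp1 between 1.65 and 1.70, Lcn2 between 0.95 and 1.38, Ngp between 2.30 and 2.77, Ltf between 2.18 and 2.72, Cd177 between 1.44 and 2.04 and Itgb2l between 1.80 and 2.71. The median log2 fold change of the 10 was 1.545 without Shp2f/fLysMcre replicate 1. It was 1.854 without the library that held fibroblast transcripts, Shp2f/fLysMcre replicate 2. In that library 7 of the 10 genes were lower than in replicate 1, by up to 1.81-fold for Itgb2l, and Camp, Pglyrp1 and Hp were 1.12-fold, 1.02-fold and 1.01-fold higher.

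**Figure D2:**
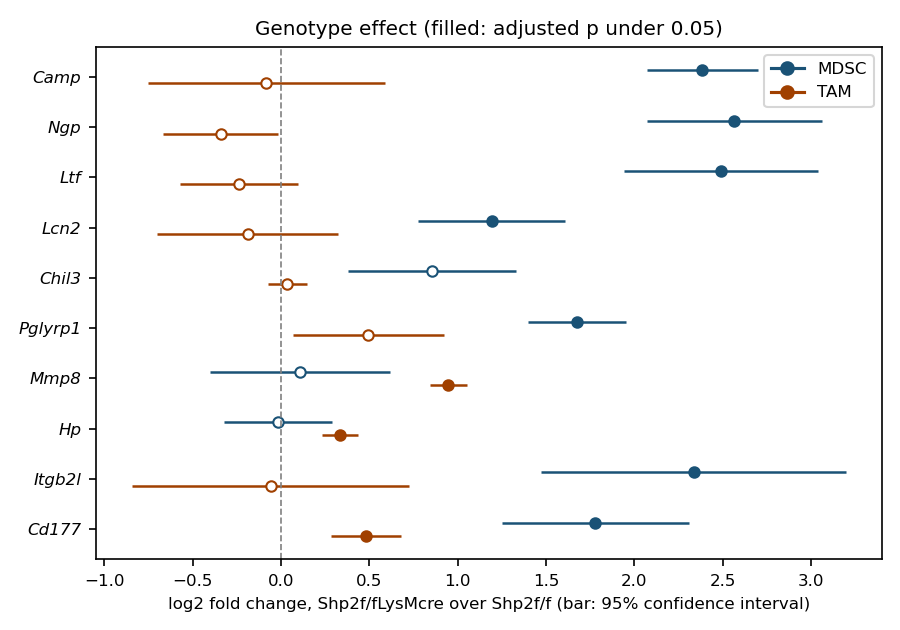
Log2 fold change of each specific granule gene in Shp2f/fLysMcre over Shp2f/f, with 95% confidence intervals (bars), in MDSC (4 libraries) and TAM (6 libraries), filled where the adjusted p was under 0.05. The MDSC values run from -0.02 (Hp) to 2.57 (Ngp) and the TAM values from -0.34 (Ngp) to 0.95 (Mmp8), and Mmp8 and Hp are the genes whose TAM point lies to the right of the MDSC point.

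The proportions of the 10 transcripts among themselves also differed by genotype in MDSC. Per kilobase of exon, Chil3 was the most abundant in Shp2f/f, at 1471 ± 70.8 CPM per kb (SD, n = 2), followed by Hp at 1088 ± 84.7 and Ngp at 540.8 ± 57.1, and the libraries of each gene in that order did not overlap with those of the next. Camp, Lcn2, Mmp8, Ltf, Pglyrp1, Cd177 and Itgb2l followed, from 405.7 ± 7.0 down to 4.29 ± 1.18 CPM per kb (SD, n = 2 each). In Shp2f/fLysMcre, Ngp stood first at 3212 ± 651 CPM per kb (SD, n = 2), followed by Chil3 at 2665 ± 605 and Camp at 2129 ± 164, with Ngp overlapping Chil3 and Chil3 overlapping Camp, whereas Ngp and Camp did not overlap. Hp stood next at 1079 ± 4.21 CPM per kb (SD, n = 2), clear of Lcn2 at 778.6 ± 144. As a share of the counts of the 10 genes, Hp made up 22.6% and 24.7% in the Shp2f/f libraries and 8.83% and 11.3% in the Shp2f/fLysMcre libraries, and Ngp 9.71% and 8.19% against 22.9% and 21.8%. With the longest transcript in place of all exon bases, Lcn2 moved ahead of Ngp in Shp2f/f (647.4 CPM per kb) and of Hp in Shp2f/fLysMcre (1486 CPM per kb).

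Genes of the neighboring stages were compared by lists, and these are shown with the members in the plot of fold changes by list. All 5 genes of the azurophil granule list, which includes the precursor gene Ms4a3, rose in Shp2f/fLysMcre MDSC, with a median log2 fold change of 1.41. Ms4a3, a membrane protein of granulocyte and monocyte precursors, rose from 27.1 and 27.7 to 93.4 and 80.3 CPM (log2 fold change 1.66, edgeR, adjusted p = 0.017), and Mpo, the azurophil enzyme myeloperoxidase, from 169.8 and 131.1 to 529.8 and 350.4 CPM (1.54, edgeR, adjusted p = 0.0354). Of 14 tested genes whose proteins are held in other specific, gelatinase and secretory stores, such as Itgb2, none was called in either direction in MDSC by edgeR, and their median was 0.25. At an unadjusted p under 0.05 edgeR gave 5 higher and 1 lower, and DESeq2 called 3 higher and 1 lower. Itgb2, the integrin beta chain of Mac-1, was at 1176 and 1175 CPM against 1295 and 954.1 CPM (-0.07, edgeR, adjusted p = 0.895). Of 12 mature neutrophil genes 4 rose, among them S100a9, a calcium-binding protein, from 3218 and 3205 to 10620 and 9298 CPM (1.63, edgeR, adjusted p = 0.0179), and Ly6g, from 11.9 and 8.92 to 33.2 and 29.8 CPM (1.59, edgeR, adjusted p = 0.0186). The other 8 were not called by edgeR, and the median of the 12 was 0.59. Without adjustment edgeR gave 7 of the 12 higher and 1 lower at p under 0.05, and DESeq2 called 5 higher.

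Of 9 transcription factors known to act on granule genes, 2 passed in MDSC, Gfi1 and Cebpe. Gfi1 was at 4.47 and 3.90 CPM in Shp2f/f and 20.98 and 19.3 CPM in Shp2f/fLysMcre (log2 fold change 2.26, SE 0.15, edgeR, adjusted p = 0.017). Cebpe was at 15.04 and 12.7 CPM against 61.2 and 45.2 CPM (1.93, SE 0.20, edgeR, adjusted p = 0.0183). Cebpa, Cebpb, Spi1, Runx1 and Cux1 were lower in both Shp2f/fLysMcre libraries than in both Shp2f/f libraries, as were 24% of all tested genes, with log2 fold changes of -0.14 to -0.45, and did not pass (edgeR, adjusted p = 0.15 to 0.64). Cebpd and Lef1 did not pass either, at 0.23 and 0.97. Of the 9 factors edgeR gave 2 lower at an unadjusted p under 0.05, Runx1 and Cebpa, and DESeq2 called 1 lower.

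**Figure D3:**
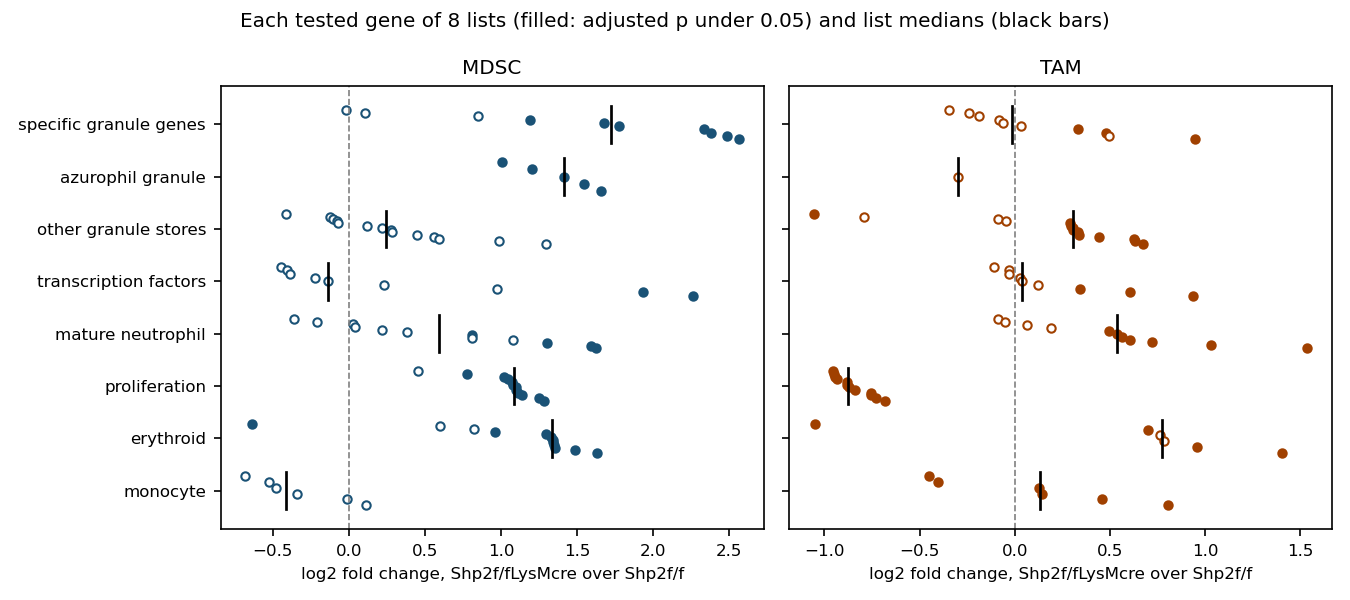
Log2 fold change, Shp2f/fLysMcre over Shp2f/f, of each tested gene of 8 lists in MDSC (left) and TAM (right), filled where the adjusted p was under 0.05, with list medians as black bars. In MDSC the specific and azurophil granule medians are 1.73 and 1.41 and the monocyte median is -0.41, and in TAM the proliferation genes all lie below 0 with a median of -0.87.

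Markers of other cells moved with genotype in the same MDSC libraries, and their part in the result was not tested. In bulk RNA, a larger share of granule-making cells and more transcript per cell cannot be told apart. The 6 monocyte markers summed to 6782 and 6661 CPM in Shp2f/f and to 5523 and 4345 CPM in Shp2f/fLysMcre MDSC. None of the 6 was called by edgeR (3 lower at an unadjusted p under 0.05, and 2 called lower by DESeq2), 4 of them were lower in both Shp2f/fLysMcre libraries (24% of all tested genes were), and the most abundant, the chemokine receptor Ccr2, went from 1964 and 1904 to 1483 and 1209 CPM (log2 fold change -0.53, edgeR, adjusted p = 0.133). Of 12 proliferation genes 11 rose, with a median of 1.09, including the mitotic kinase Cdk1 (1.25, edgeR, adjusted p = 0.0179) and the spindle protein Nusap1 (1.28, edgeR, adjusted p = 0.0234). Their sums were 712.2 and 675.6 CPM against 1560 and 1303 CPM. Of 12 erythroid genes 9 rose and 1 fell, with sums of 463.9 and 501.2 CPM against 971.6 and 1117 CPM, including Slc4a1, the red cell anion exchanger (1.63, edgeR, adjusted p = 0.0192). Of 6 B cell genes 2 fell, including Pax5 (-2.83, edgeR, adjusted p = 0.0206). Of 7 T and NK cell genes 1 rose, Nkg7, a cytotoxic granule protein (1.19, edgeR, adjusted p = 0.0183). Of 7 tested eosinophil and basophil genes 2 rose, Ms4a2 (1.55, edgeR, adjusted p = 0.034) and Mcpt8 (1.40, edgeR, adjusted p = 0.029), and the list median was 1.125. At an unadjusted p under 0.05 edgeR gave 4 B cell genes lower, 3 T and NK cell genes higher and all 7 eosinophil and basophil genes higher. DESeq2 called 3, 1 and 2 genes of these lists in the same directions. No gene of the macrophage, megakaryocyte or fibroblast lists was called in MDSC, including Apoe (-0.01), Itga2b (-0.08) and Col1a1 (3.46, edgeR, adjusted p = 0.346). At an unadjusted p under 0.05 edgeR gave 3, 1 and 4 genes of these lists, and DESeq2 called 3, 0 and 1.

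**Figure D4:**
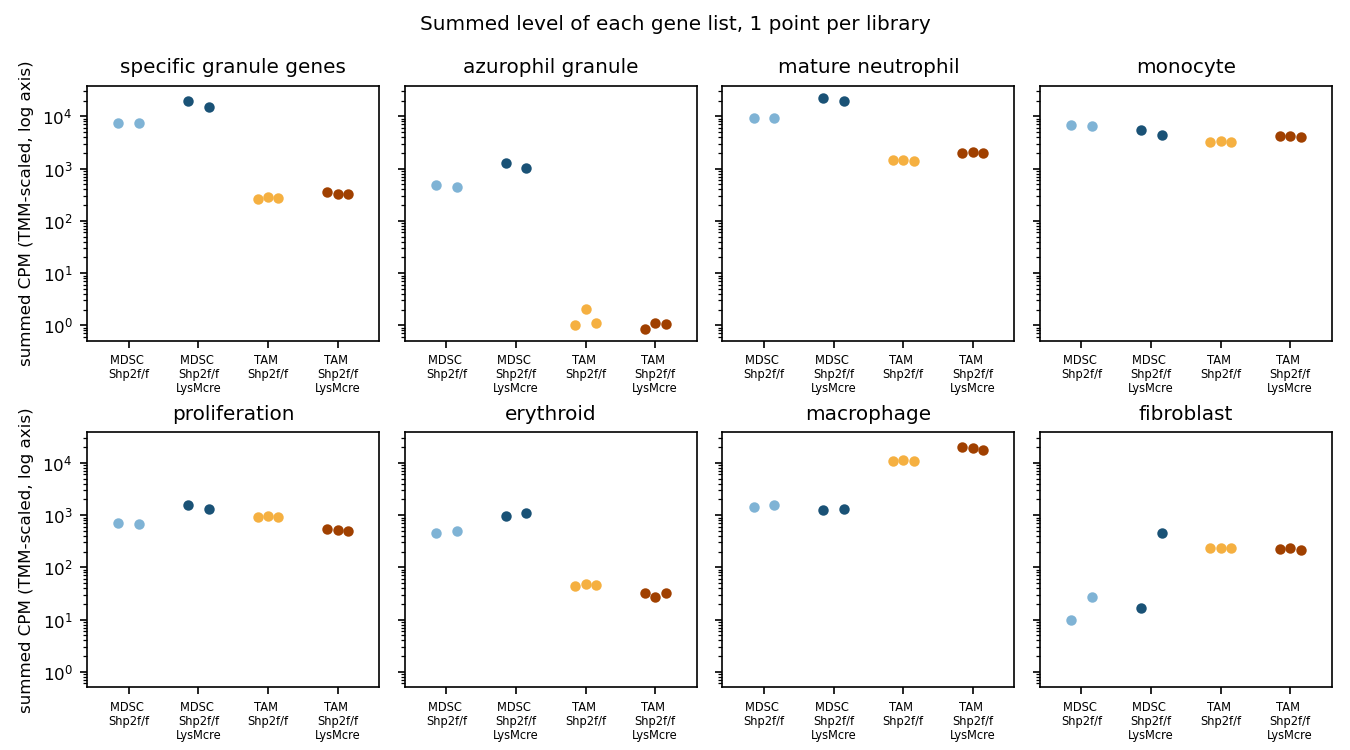
Summed TMM-scaled CPM (log axis) of 8 gene lists, 1 point per library, in MDSC and TAM of both genotypes. The specific granule sum is 15440 to 19570 CPM in Shp2f/fLysMcre MDSC and 257.9 to 349.9 CPM in TAM, the azurophil sum is at most 2.06 CPM in TAM, and the fibroblast sum sets 1 MDSC library apart at 463.1 CPM.

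The region between Camp and Ltf on chromosome 9, 1.195 Mb from the start of Camp to the end of Ltf, was read for its other genes. It holds 51 other annotated genes, of which 18 were tested in MDSC. One of these was called, Cdc25a, a phosphatase of the cell cycle that was named after its value was seen, with a log2 fold change of 1.12 (edgeR, adjusted p = 0.024). The median of the 18 was -0.004, and the rise at Camp, Ngp and Ltf was not shared by most genes between them.

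The second question was whether TAM showed the same genotype effect. Here 3 of the 10 rose in Shp2f/fLysMcre TAM, Mmp8, Hp and Cd177 (edgeR quasi-likelihood test), against 23.9% of all 14446 tested genes called higher. None was called lower, as were 26.3% of all genes, and at an unadjusted p under 0.05 edgeR gave 1 lower, Ngp, while DESeq2 called 0. In 4 of the 10, these 3 and Pglyrp1, all 3 Shp2f/fLysMcre libraries lay above all 3 Shp2f/f libraries, as in 30.7% of all tested genes. The median log2 fold change of the 10 was -0.01, the same to 2 decimals as that of all genes. With scaling by total counts the median of all genes in TAM moved to -0.11, and 2342 of 7569 called genes were higher in place of 3452 of 7257.

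Mmp8 and Hp, which did not pass in MDSC, had the clearest rises in TAM. Mmp8 was at 37.5, 41.4 and 36.9 CPM in Shp2f/f TAM and 77.7, 75.9 and 75.5 CPM in Shp2f/fLysMcre TAM. All 3 Shp2f/fLysMcre values were higher, 1.93-fold in the fit (log2 fold change 0.95, SE 0.05, edgeR, adjusted p = 7.08e-08), which put Mmp8 at rank 265 from the top of 14446 genes. Hp was at 45.5, 47.6 and 44.95 CPM against 62.6, 57.2 and 58.7 CPM, a smaller rise of 0.33 on the log2 scale (SE 0.05, edgeR, adjusted p = 0.00013). Cd177, which also rose in MDSC, was at 4.80, 5.58 and 5.54 CPM against 7.66, 7.81 and 7.28 CPM (0.48, SE 0.09, edgeR, adjusted p = 0.00102). Pglyrp1 was at 1.54, 1.25 and 1.85 CPM against 2.39, 2.26 and 2.06 CPM, and its log2 fold change of 0.49 had an adjusted p of 0.0544 (SE 0.20, edgeR). It was called without Shp2f/f replicate 3 (0.66, edgeR, adjusted p = 0.0215) and with DESeq2 size factors (0.51, edgeR, adjusted p = 0.0464). The DESeq2 test did not call it (0.51, adjusted p = 0.177).

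The members with the largest rises in MDSC were low in TAM. Camp was at 0.68, 1.43 and 1.53 CPM in Shp2f/f TAM and 1.39, 1.22 and 0.92 CPM in Shp2f/fLysMcre TAM, on 23 to 56 counts, and the log2 fold change of -0.08 had a 95% confidence interval from -0.75 to 0.59 (edgeR, adjusted p = 0.844). Ngp was at 4.44, 7.01 and 5.40 CPM against 4.59, 4.58 and 4.49 CPM (-0.34, edgeR, adjusted p = 0.0758), and it was called lower without Shp2f/f replicate 1 (-0.49, edgeR, adjusted p = 0.0122), with scaling by total counts (-0.44, edgeR, adjusted p = 0.028) and with no filter on low counts (-0.35, edgeR, adjusted p = 0.0329). Ltf was at 4.03, 5.01 and 3.71 CPM against 3.98, 4.04 and 3.02 CPM (-0.24, edgeR, adjusted p = 0.216). For all 3 genes the genotypes overlapped. Lcn2 was at 10.1, 11.8 and 21.8 CPM against 14.2, 13.6 and 11.4 CPM, so that Shp2f/f replicate 3 stood apart, and the log2 fold change was -0.19 with it and 0.24 without it (edgeR, adjusted p = 0.532 and 0.079). Chil3 was at 149.1, 169.6 and 157.0 CPM against 175.1, 164.5 and 160.1 CPM, with a log2 fold change of 0.04 and a 95% confidence interval from -0.08 to 0.15 (edgeR, adjusted p = 0.595). Itgb2l was at 0.27, 0.31 and 0.35 CPM against 0.26, 0.27 and 0.40 CPM (-0.06, edgeR, adjusted p = 0.905), with a 95% confidence interval from -0.85 to 0.73.

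The same lists gave another picture in TAM. Of the azurophil list 1 of 5 genes was tested, Prtn3, proteinase 3, at 0.61 to 1.04 CPM, and it was not called (-0.30, edgeR, adjusted p = 0.388). Of 14 genes of other granule and secretory stores 10 rose and 1 fell, with a median of 0.31. The one that fell was Mmp9, gelatinase B, from 3979 to 4258 CPM in Shp2f/f to 1946 to 2051 CPM in Shp2f/fLysMcre (-1.06, edgeR, adjusted p = 2.56e-09), and the largest rise was that of Itgam, the alpha chain of Mac-1 (0.67, edgeR, adjusted p = 9.65e-07). Among the transcription factors Cebpa (0.94), Cebpb (0.61) and Cebpd (0.34) rose (edgeR, adjusted p = 3.83e-08, 1.64e-06 and 0.0104), and Gfi1 and Cebpe were not called (edgeR, adjusted p = 0.847 and 0.66). Of 11 tested mature neutrophil genes 7 rose, with Cxcr2, a chemokine receptor, at 7.72 to 8.03 CPM against 16.1 to 16.6 CPM (1.03, edgeR, adjusted p = 1.87e-07) and Csf3r, the G-CSF receptor, at 112.9 to 116.8 against 189.3 to 198.7 CPM (0.72, edgeR, adjusted p = 1.02e-07). Ly6g stayed at or below 0.29 CPM. All 12 proliferation genes fell, Mki67 by 0.95 and Top2a by 0.95 on the log2 scale (edgeR, adjusted p = 1.09e-08 and 1.45e-08), and all 8 macrophage genes rose, Apoe by 1.01 and C1qb by 0.74 (edgeR, adjusted p = 1.13e-07 and 7.85e-08), with sums of 10800 to 11330 CPM against 17970 to 20030 CPM. Their part in the rises of Mmp8, Hp and Cd177 was not tested.

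Other marker lists moved in TAM as well. Of the 6 monocyte genes 4 rose, F13a1 (0.80, edgeR, adjusted p = 2.34e-08) and Ms4a6c (0.46, edgeR, adjusted p = 2.76e-06) the most, and 2 fell. All 7 T and NK cell genes fell, including Nkg7 (-1.54, edgeR, adjusted p = 0.000216) and Cd3g (-1.29, edgeR, adjusted p = 0.00104). The other lists gave 3 higher and 1 lower of 6 tested erythroid genes, 2 of 4 B cell genes higher, 0 of 3 eosinophil and basophil genes (0 also unadjusted and by DESeq2), 2 of 3 platelet genes higher, and 1 higher and 2 lower of 6 fibroblast genes.

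The difference between the 2 genotype effects was tested in 1 fit of all 10 libraries, as the effect in TAM minus that in MDSC. The MDSC and TAM came from the same mice, but the sources do not say which libraries share a mouse. This fit and the comparison of cell types below therefore treated all libraries as independent. All 10 members passed (edgeR quasi-likelihood interaction). In 8 the value was negative, against 12.7% of all 16581 tested genes called lower, and in 2, Mmp8 and Hp, it was positive, against 12.2% called higher. Ngp differed most, by -2.88 on the log2 scale (SE 0.25, adjusted p = 4.86e-05), followed by Ltf at -2.70 (SE 0.27, adjusted p = 9.79e-05) and Camp at -2.44 (SE 0.31, adjusted p = 0.000455). Mmp8 differed the other way, by 0.87 (SE 0.19, adjusted p = 0.0077), and Hp by 0.38 (SE 0.10, adjusted p = 0.0183). Chil3, which missed the threshold in each cell type, differed by -0.79 (SE 0.17, adjusted p = 0.00899). This fit used one spread for both cell types, although fitted alone they had biological coefficients of variation of 0.189 (MDSC) and 0.0595 (TAM). With weights per cell type (limma voom), 8 of the 10 passed, and Lcn2 (-1.26, adjusted p = 0.0551) and Itgb2l (-2.34, adjusted p = 0.0569) did not. With 1 library left out, 7 to 10 passed: Itgb2l was lost without MDSC Shp2f/f replicate 2, any TAM Shp2f/f replicate or TAM Shp2f/fLysMcre replicate 1 or 2, Lcn2 without either MDSC Shp2f/f replicate or TAM Shp2f/fLysMcre replicate 2 or 3, Hp without MDSC Shp2f/f replicate 2 or TAM Shp2f/f replicate 3, and Chil3 without MDSC Shp2f/f replicate 1. With scaling by total counts, Hp did not pass (0.21, edgeR, adjusted p = 0.125), and the median of all genes in this contrast moved to -0.18, with 1234 of 4366 called genes higher in place of 2030 of 4132.

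The last comparison set the cell types side by side with SHP-2 intact, in the same Shp2f/f libraries as above, where cell type, organ and isolation differ together. All 10 members were lower in TAM than in MDSC (edgeR quasi-likelihood test), against 38.8% of all 15659 tested genes. The log2 differences ran from -7.96 for Camp (SE 0.13, adjusted p = 4.29e-11) to -3.92 for Chil3 (SE 0.06, adjusted p = 3.3e-11), or 15.2-fold lower. Mmp8 (-4.29), Cd177 (-4.64) and Hp (-5.25) were next to Chil3, and Ngp (-6.87) and Ltf (-6.50) next to Camp. The genes were therefore not reduced in 1 ratio. In Shp2f/f, the TAM level was 0.395% of the MDSC level for Camp, 0.85% for Ngp and 1.10% for Ltf, but 5.12% for Mmp8 and 6.60% for Chil3. In Shp2f/fLysMcre it was 0.0729% for Camp and 9.39% for Mmp8. The 12 mature neutrophil genes spread widely in Shp2f/f, from 1.65% for S100a8 to 304% for the highest of the list. Ly6g was at 1.84%, S100a9 at 2.31%, Cxcr2 at 6.38% and Csf3r at 17.2%. For the genes of the azurophil list the Shp2f/f values were 0.116% to 0.444%.

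Within TAM, Chil3 stood first per kilobase of exon in both genotypes, at 97.1 ± 6.34 CPM per kb in Shp2f/f and 102.1 ± 4.74 in Shp2f/fLysMcre (SD, n = 3 each). Hp and Mmp8 followed in both, at 28.7 ± 0.88 and 15.9 ± 1.01 CPM per kb in Shp2f/f and at 37.0 ± 1.72 and 31.5 ± 0.49 in Shp2f/fLysMcre (SD, n = 3 each), and the libraries of these 3 genes did not overlap. Lcn2 and Ngp overlapped in Shp2f/f, as did Cd177 with Camp and Camp with Ltf, so that their order is not settled there. Itgb2l was lowest in every group, at 0.072 CPM per kb in both TAM genotypes.

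Among the 8850 genes that averaged 10 CPM or more, 5 genes outside the list followed the mean standardised pattern of the 10 members most closely over the 10 libraries. They were Slc4a1 (Pearson r = 0.9992), Serpinb1a (0.999), S100a8 (0.999), Zfp414 (0.9985) and Cd24a (0.9985). The libraries fall into 2 cell types, so these values mainly describe the step from MDSC to TAM and carry no test. Serpinb1a, an inhibitor of neutrophil serine proteases, was at 87.6 ± 0.24 and 215.4 ± 44.7 CPM in Shp2f/f and Shp2f/fLysMcre MDSC (SD, n = 2 each) and at 1.89 ± 0.46 and 1.97 ± 0.34 CPM in TAM (SD, n = 3 each). Slc4a1 is an erythroid gene with a mean of 0 and 0.0099 CPM in the 2 TAM groups. Of the members themselves, each of which is part of that mean, Chil3 followed the mean pattern most closely (r = 0.9991) and Mmp8 least (r = 0.9769). The members' values are therefore raised by construction.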

How the data were processed

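The authors trimmed reads with cutadapt 2.5, aligned them with STAR 2.7.3a to GRCm38 and deposited raw counts per Ensembl gene from featureCounts (Subread 1.6.2), not normalized; the submitters' notes name these tools. A second deposited table, of normalized values, and the authors' own comparisons were not used. The members and gene lists were chosen with earlier results of these data known. Gene models came from GENCODE M21, which matched 99.67% of 55421 rows. Counts were tested with edgeR 4.0.16 (R 4.3.3): filterByExpr with a minimum count of 10, TMM scaling, the quasi-likelihood F test, and Benjamini-Hochberg adjustment over all genes tested, called under 0.05. Intervals are 95%. The scripts were tested on simulated data. Replicate pairs had a chi-square of 4.46 to 58.1 per degree of freedom, so none was a repeated library. Total counts of 28844660 to 38222998 set the counting error. Named genes were all members, Ptpn11, label markers, the 2 largest called changes per list and cell type (or the most abundant gene), the granule transcription factors, and the 5 genes most like the members, on log2(CPM + 0.5); 2 genes that this rule selected are not reported here. Alternatives were DESeq2 1.42.0, its size factors in edgeR, total-count scaling, TMM without the members, no low-count filter, a replicate block, one fit of all libraries, limma 3.58.1 voom, the longest transcript as length, and leaving out each library.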

Additional observations from a re-analysis of the deposited data

Results flagged for a closer look

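For all 10 genes the effect of genotype in TAM differed from that in MDSC in the edgeR quasi-likelihood interaction test over 10 libraries (adjusted p = 4.86e-05 to 0.0339). The difference, as the log2 effect in TAM minus that in MDSC, was -2.88 for Ngp, -2.70 for Ltf, -2.44 for Camp, -2.37 for Itgb2l, -1.35 for Lcn2, -1.27 for Cd177, -1.15 for Pglyrp1 and -0.79 for Chil3. It was 0.87 for Mmp8 and 0.38 for Hp. Cd177 was called higher in both cell types, so its negative difference is one of size. Camp and Itgb2l had 8 to 56 counts in the TAM libraries, and the spread of the MDSC libraries entered all 10 values.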

How the results depend on the processing

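Of the 7 members called in MDSC, 4 passed with no filter on low counts, where 130 of 27261 genes were called in place of 633 of 14806. Leaving out each library gave 0 to 9 members called, with 0 for either Shp2f/f replicate, and 1 to 4406 genes over the whole table. The lone library is then assumed to vary like the other group. DESeq2 called 1216 genes and 8 members in MDSC, and one fit of all 10 libraries 2666 genes and 8 members. In TAM 3 or 4 members were called under every alternative run, with 4837 genes in the fit of all libraries in place of 7257. In the interaction 7 to 10 members were called with 1 library left out, and 2446 to 7023 genes in place of 4132. In the comparison of cell types all 10 were called throughout.

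The replicate numbers were used as a replicate block, although the numbers are not known to pair samples. Same-numbered samples of the 2 genotypes, as deviations from their group means, correlated at 0.293 in MDSC and at -0.133 to 0.051 in TAM. With 2 libraries per group, the 2 MDSC pairs give the same value by construction. Pairs of an MDSC and a TAM library were not compared. The block called 8 members in MDSC, the added one being Chil3 (0.83, edgeR, adjusted p = 0.000478), among 2674 genes. It called 3 members in TAM, and 10 each in the interaction and between cell types.

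Signs turned only for log2 fold changes that did not pass. With scaling by total counts Hp in MDSC was 0.028 and Chil3 in TAM -0.063. With 1 library left out, the MDSC values ran from -0.10 to 0.062 for Hp and from -0.23 to 0.36 for Mmp8, which was called at 0.36. In TAM they ran from -0.37 to 0.12 for Camp, -0.39 to 0.24 for Lcn2, -0.28 to 0.055 for Itgb2l and -0.010 to 0.086 for Chil3. With 2 libraries per MDSC genotype, and 8 to 13 counts behind Itgb2l in TAM, small differences were not detectable.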
